A study of Danio rerio with 6 samples.

Results

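On zebrafish chromosome 7, a total of 68 regions were bound by Smad2 and 346 by Eomesodermin a (Eomesa) in the blastula, 414 of the 7276 regions found for both factors across the genome. They were taken as every interval on chromosome 7 in the peak lists of the 898 Smad2 and 6378 Eomesa regions, with no choice by height or by gene. The peaks came from chromatin immunoprecipitation with sequencing (ChIP-seq) on whole wild-type embryos of the AB strain, fixed with formaldehyde at high to sphere stage, without any other treatment. There were 6 libraries, 2 reactions each for Smad2, for Eomesa and for input, which is chromatin taken without antibody, and each reaction pooled a large number of embryos. The Smad2 antibody was a monoclonal one against a stretch of Smad2 that zebrafish Smad3 lacks, and the Eomesa antibody was a polyclonal serum against the full-length protein. A list holds the peaks found in both reactions, and each of the 3 tracks (Smad2, Eomesa and input) gives 1 value per position, so that no spread between reactions was at hand and no difference below was tested.

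Smad2 is the transcription factor that carries the Nodal signal. Nodal ligands activate receptors at the cell surface, the receptors phosphorylate Smad2, and Smad2 enters the nucleus and acts on genes together with partners that contact DNA more firmly, such as the forkhead factor Foxh1 and the T-box factor Eomesodermin. In the zebrafish blastula this pathway sets up the mesoderm and the endoderm at the margin, and Eomesa is supplied by the mother.

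The sequences best placed to show where such a partner could sit are the Foxh1 matches that the study listed inside Smad2 peaks. Each is the best match to a published Foxh1 matrix, is 11 bases long, and is written here with its first bases in lower case and its last 8 in capitals, the part that holds the Foxh1 core. The strand and the place of the match within the peak are not given in the list, and how often such letters occur in other regions was not counted. A match is a description of letters, not a site shown to be used. Those of the region of fgf4 and fgf3, which encode fibroblast growth factors, are shown first. Of these, Smad2_peak791 was shared with Eomesa and the others were lone, and Smad2_peak791 and Smad2_peak793 have no gene of their own in the annotation.
Smad2_peak791: gtaAATAAACA
Smad2_peak793: tacAATACACA
Smad2_peak794: tacAATCCACA
Smad2_peak795: ttcAATACACA
Smad2_peak796: atgAATAAACA
Beside them stand 5 further peaks that Smad2 shared with Eomesa near named genes, which are cth1, irx3a, adamts18, smarcd3b and sox32 in this order.
Smad2_peak763: tggAATAAACA
Smad2_peak776: tgcAATACACA
Smad2_peak785: ctgAATAAACA
Smad2_peak788: tacATTCCACA
Smad2_peak801: ttgATTAAACA
A peak inside a run of histone genes, where Eomesa was low, also carried such a match.
Smad2_peak753: gagAATAAACT
The capitals AATAAACA stood at fgf4 and fgf3 (Smad2_peak796), at cth1 (Smad2_peak763), at adamts18 (Smad2_peak785) and at Smad2_peak791. Among matches not shown, they also stood at NTN5 (Smad2_peak765), at rbm4.3 and TIFA (Smad2_peak767) and at a 5S ribosomal RNA gene (Smad2_peak773). The same letters were thus found in peaks with and without a called Eomesa peak, and near genes of varied kinds. All of these peaks lay outside the runs of histone genes. Inside such runs, matches were listed only at Smad2_peak753 and Smad2_peak806. The matches shown are only a part of those listed for this chromosome, and no share over all Smad2 peaks was counted.

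Chromosome 7 spanned 77.3 Mb on the Zv9 build and held more peaks of each factor than any of the other chromosomes, of which there are 25 in all. Its density was 0.88 Smad2 and 4.48 Eomesa peaks per Mb, against 0.622 and 4.52 in the rest of the series. Summed signal gave estimates of 12.6 M tags (M, mega) in the Smad2 track, 12.3 M in the Eomesa track and 19.0 M in the input track. On chromosome 7 these were 0.692, 0.659 and 1.04 M, and its mean signal was 1.01, 0.976 and 0.998 times the genome-wide mean of the same track. A Smad2 or input tag covered 132 bp and an Eomesa tag only 38.9 bp. Heights below are the highest number of tags over a position inside a peak. They are compared within a track, and Eomesa heights are not ranked against those of Smad2 or input. Peaks of each factor had been called against input, so a factor above input at its own peaks restates that call. Of the whole signal on the chromosome, the Smad2 peaks held 0.293% in the Smad2 track, and the Eomesa peaks held 3.86% in the Eomesa track.

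Smad2 and Eomesa peaks were spread differently along the chromosome. In 5 Mb bins counted from the start, Smad2 peaks numbered 1, 18, 2, 2, 6, 4, 2, 7, 7, 1, 6, 2, 2, 1, 2 and 5, and Eomesa peaks numbered 3, 13, 14, 31, 28, 27, 25, 30, 36, 17, 29, 26, 17, 18, 19 and 13. The last bin was only 2.28 Mb long. The second bin held 26.5% of the Smad2 peaks but 3.76% of the Eomesa peaks, and it was the only bin in which Smad2 peaks outnumbered Eomesa peaks. The ninth bin was the fullest for Eomesa. The excess of Smad2 peaks in the second bin lay in histone genes, described next, and outside these each bin with any Smad2 peak left held between 1 and 7.

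**Figure D1:**
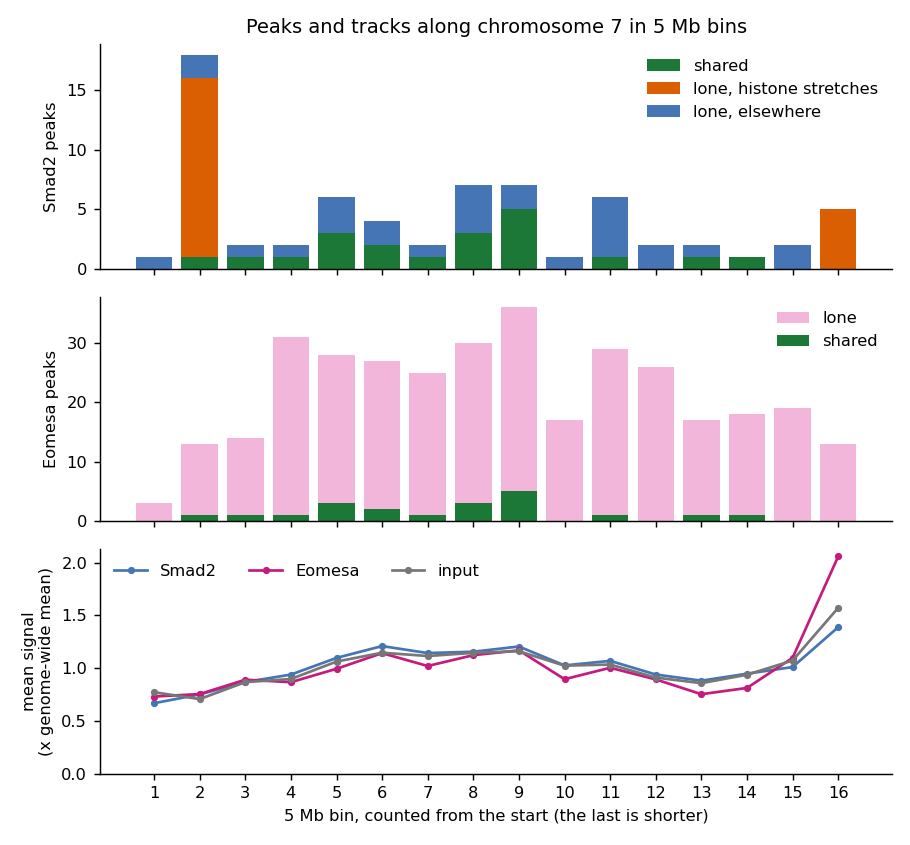
Counts of Smad2 peaks (top) and Eomesa peaks (middle) in each 5 Mb bin of chromosome 7, coloured by whether the peak was shared, and the mean signal of the 3 tracks in each bin as a multiple of its genome-wide mean (bottom). The second bin holds 18 Smad2 peaks, 15 of them in a histone stretch, and the 3 tracks follow each other except in the shorter last bin, where the Eomesa track reaches 2.06 times its mean.

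Much of the chromosome carried Eomesa peaks without Smad2. The longest interval between neighbouring Smad2 peaks, 9.0 Mb after Smad2_peak790, held 41 Eomesa peaks, and the interval of 7.53 Mb after Smad2_peak801 held 31. By contrast, only 1 Eomesa peak lay in the 5.31 Mb after Smad2_peak741, near the start of the chromosome, where peaks of both factors were few. The median distance to the next peak was 325 kb for Smad2 and 123 kb for Eomesa. Over the 15 full bins, Spearman's rho between Smad2 and Eomesa peak numbers was 0.487, and 0.677 without the histone stretches. The number of Eomesa peaks also followed the share of the bin covered by input tags (rho 0.685), which ran from 42.0% in the first bin to 61.7% in the ninth. For Smad2 peaks, rho with this share was 0.339, and 0.529 without the histone stretches. The part of this coverage in the peak numbers was not tested.

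Histone genes held most of the Smad2 peaks of the fullest bin and 20 of the 68 peaks of the chromosome. Replication-dependent histone genes encode the proteins around which DNA is wound, are present in many near-identical copies, and are strongly used in dividing embryos. The study's annotation, which lists genes with a start site within 10 kb of the centre of a Smad2 peak, gave a histone gene name to 14 of the 68 peaks: HIST1H4A, HIST1H4C, HIST1H4E, HIST1H4J, HIST1H4L and HIST2H4A for histone H4, and zgc:165551 and zgc:195633, which RefSeq names hist1h2a6 and hist1h2a11, for histone H2A. With the peaks that shared gene names with these, 20 Smad2 peaks fell in 2 stretches. This set was drawn after the values had been seen. The longer stretch, chr7:6753270-7287693, held 15 Smad2 peaks in 534 kb (Smad2_peak743 to Smad2_peak757), and the shorter, chr7:76815851-76859209 near the end of the chromosome, held 5 in 43.4 kb (Smad2_peak804 to Smad2_peak808). None of the 20 overlapped an Eomesa peak, where 39.5% of all 898 Smad2 peaks did. Reads that matched at 2 places had been kept in mapping, and with copies this alike the peaks cannot be assigned to single genes.

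In the histone stretches 3 Eomesa peaks were called, or 5.19 per Mb, beside 4.48 per Mb over the chromosome. None of them overlapped a Smad2 peak, but only 5.63% of all Eomesa peaks did, so nothing is read from this. The longer one held Eomesa_peak5320 with 30 Eomesa tags and Eomesa_peak5321 with 16, the nearest Smad2 peak lying 22.8 and 38.0 kb away. The shorter one held Eomesa_peak5658, 132 bp wide with 7 Eomesa tags, 1.22 kb from Smad2_peak806. In the longer stretch all 3 tracks were below their genome-wide means, at 0.91 for Smad2, 0.828 for Eomesa and 0.612 for input, and in the shorter all were above, at 3.52, 4.98 and 1.86.

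Of the 4 tight groups of Smad2 peaks on the chromosome (at least 3 peaks with gaps of up to 10 kb), 3 lay in the histone stretches and the other at fgf4. They held 14 peaks, 20.6% of the 68 (Wilson 95% interval 12.7 to 31.6%), where the share over all 898 Smad2 peaks was 10.5%. Peaks of a group enter it together, so this interval is too narrow. None of the 14 was shared with Eomesa, beside 39.5% of all 898 Smad2 peaks. Outside the histone stretches 1 group of 3 peaks was left.

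The largest group had 5 peaks in 15.0 kb at histone H4 and H2A genes, chr7:7241298-7256314. Smad2 heights were 20 tags at Smad2_peak751, 21 at Smad2_peak752, 11 at Smad2_peak753, 8 at Smad2_peak754 and 18 at Smad2_peak755. Eomesa heights at the same peaks were 5, 3, 2, 0 and 5, and input heights 13, 7, 5, 3 and 13. In tags, Smad2 was thus above input at each of the 5 peaks, which restates their call against input. Input was highest at the first and the last, and Eomesa was low throughout. The signal between the peaks was also raised: over the whole span Smad2 was at 3.20 times its mean, Eomesa at 1.49 times and input at 1.22 times.

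The group of 3 earlier in the same stretch, chr7:6809974-6821868, was the lowest. Its peaks had 3, 9 and 7 Smad2 tags (Smad2_peak745, Smad2_peak746 and Smad2_peak747), where input had 4, 7 and 10 and Eomesa 0, 5 and 3. In tags, input stood above Smad2 at Smad2_peak745 and Smad2_peak747, but input was the deeper track and tags were not scaled for this. As multiples of the genome-wide mean, mean Smad2 signal was above input at both. It was 1.89 against 1.13 at Smad2_peak745 and 5.34 against 4.10 at Smad2_peak747. Smad2_peak745 was, with Smad2_peak756, the lowest Smad2 peak on the chromosome. Its 3 tags have an exact Poisson 95% interval of 0.619 to 8.77, which covers the 4 unscaled tags of input.

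The group near the chromosome end, chr7:76815851-76824567, had 21, 20 and 11 Smad2 tags (Smad2_peak804, Smad2_peak805 and Smad2_peak806). Eomesa heights were 19, 2 and 1, and input heights 15, 8 and 6. Smad2_peak804 was the only member of a tight group with more than 5 Eomesa tags. It lay 6.69 kb from the nearest Eomesa peak and had no Eomesa call of its own. In the same stretch, Smad2_peak808 next to HIST1H4A and HIST1H4C had 31 Smad2, 9 Eomesa and 17 input tags, 1 of the 3 tallest lone peaks outside groups.

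Narrow peaks gathered in the histone stretches as well. There were 8 Smad2 peaks under 100 bp (11.8% of 68), against 4.12% over all Smad2 peaks, and 6 of them were in these stretches. All 5 peaks under 50 bp were there: Smad2_peak745 (40 bp), Smad2_peak747 (30 bp), Smad2_peak754 (47 bp), Smad2_peak756 (30 bp) and Smad2_peak807 (10 bp). Smad2_peak807 had 8 Smad2 tags inside its 10 bp and 25 within 200 bp, with 11 and 15 tags of input. At this peak the listed interval thus lay off the highest point of the signal. Input reached or passed the Smad2 height at 5 of the 68 peaks, a share of 7.35% beside 4.57% over all Smad2 peaks, and 4 of the 5 were in the histone stretches. Input was the deeper track and was not scaled for this.

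**Figure D2:**
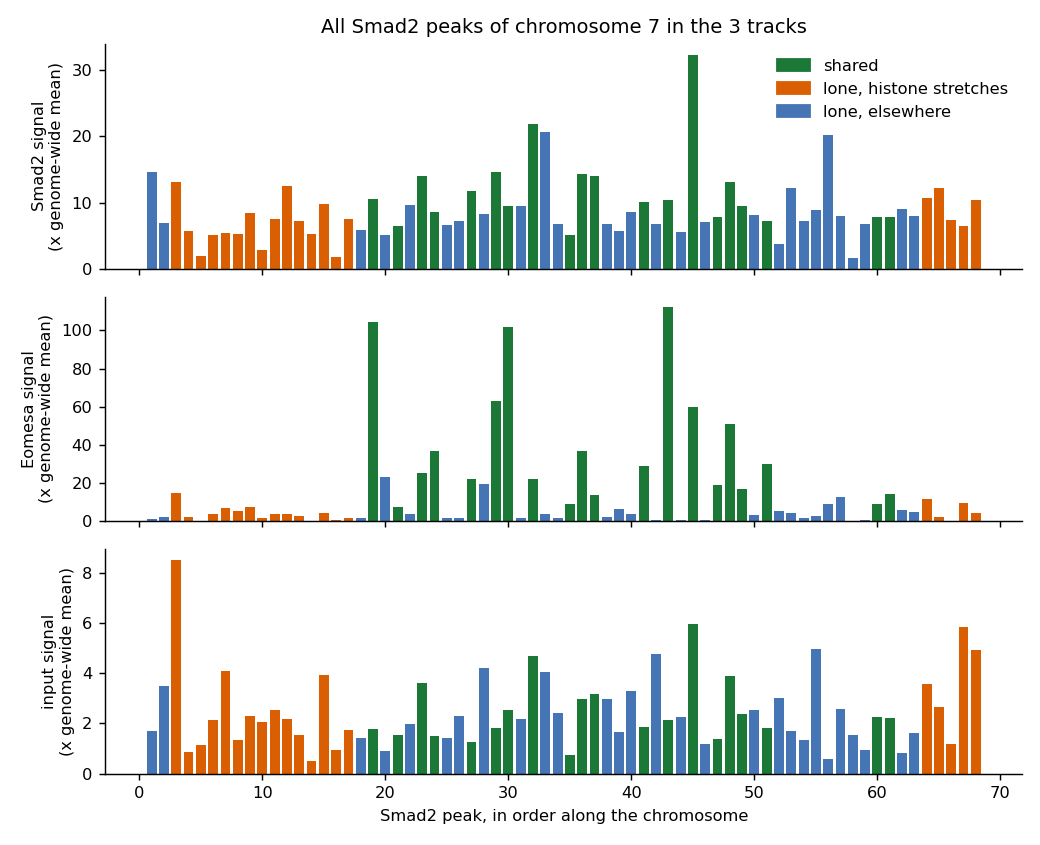
Mean signal inside each of the 68 Smad2 peaks, in order along the chromosome, in the Smad2, Eomesa and input tracks as multiples of the genome-wide mean, with shared peaks in green, lone peaks of the histone stretches in orange and other lone peaks in blue. Smad2 signal is raised at peaks of all 3 kinds, tall Eomesa bars stand at green peaks, and the highest Smad2 bar (32.4 times the mean) is the peak at adamts18.

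The tight group outside the histone stretches lay at fgf4, in the region that also holds fgf3. Fgf3 and Fgf4 are secreted ligands of FGF receptors, a pathway known to act with Nodal in forming mesoderm. The 3 peaks of the group, chr7:54626226-54630503, had 27 Smad2 tags at Smad2_peak793, 15 at Smad2_peak794 and 17 at Smad2_peak795, where Eomesa had 4, 3 and 3 and input 6, 5 and 13. Smad2_peak793, at chr7:54626226-54626912, had an interval of 17.8 to 39.3 for Smad2 and 2.20 to 13.1 for input, which do not overlap. At Smad2_peak795 the intervals of Smad2 (9.90 to 27.2) and input (6.92 to 22.2) overlapped. Both tracks were made with the same tag length, and input was the deeper. These peaks had been called against input, so Smad2 above input restates that call.

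Smad2_peak796, at chr7:54647492-54647803 and annotated to both fgf4 and fgf3, had the highest Smad2 signal over input among the Smad2 peaks of the chromosome. Its heights were 40 tags for Smad2 (28.6 to 54.5), 6 for Eomesa (2.20 to 13.1) and 2 for input (0.242 to 7.22). In mean signal, Smad2 was at 20.2 times its genome-wide mean and input at 0.59 times, a ratio of 34.2. The next highest ratio among these Smad2 peaks was 10.8 at Smad2_peak802 near GPR125. Regions outside the Smad2 peaks were not ranked. Eomesa was at 9.24 times its mean without a called peak, the nearest one being 24.2 kb away.

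At 84.6 kb before the group, Eomesa was called where Smad2 was weaker. Smad2_peak791 had 12 Smad2, 20 Eomesa and 8 input tags and was shared with Eomesa_peak5565, and its neighbour Smad2_peak792, 56 bp wide, had 5, 2 and 6. Eomesa_peak5564 and Eomesa_peak5566 on either side had 25 and 15 Eomesa tags, making a group of 3 Eomesa peaks. Over these 107 kb the Eomesa calls thus stood at the start and the tall lone Smad2 peaks at the end. Smad2_peak793, Smad2_peak796 and Eomesa_peak5571 had also been chosen by the study for a separate ChIP-qPCR assay, which is not analysed here. Eomesa_peak5571, chr7:55568817-55569421, had 24 Eomesa tags with 4 Smad2 and 8 input tags and lay 921 kb from the nearest Smad2 peak. Of 6 FGF ligand genes on the list, fgf3 and fgf4 were annotated to Smad2 peaks of this chromosome. Whether the others lie on this chromosome was not looked up, and their binding elsewhere is not described here.

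**Figure D3:**
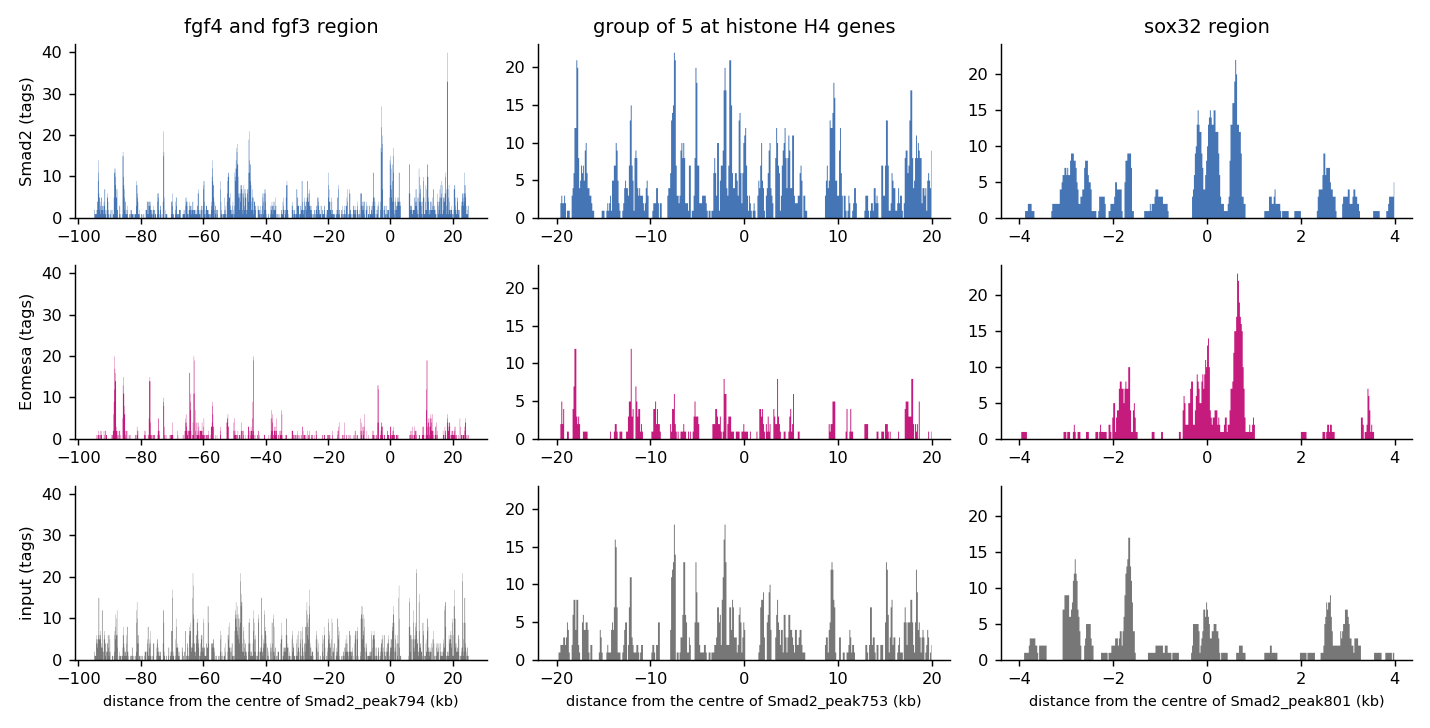
Tags at every position in the Smad2 (top), Eomesa (middle) and input (bottom) tracks around Smad2_peak794 at fgf4, Smad2_peak753 at histone genes and Smad2_peak801 at sox32, with distance from the centre of that peak in kb on the horizontal axis and the same vertical scale within a column. The tall Smad2 peak after fgf4 (40 tags) has little input under it, the histone group shows many Smad2 maxima with input maxima at several of them, and at sox32 Smad2 and Eomesa rise together.

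At 20 sites Smad2 and Eomesa peaks overlapped by at least 1 bp. These are 29.4% of the 68 Smad2 peaks (19.9 to 41.1%), where the share over all Smad2 peaks was 39.5%, and 5.78% of the 346 Eomesa peaks (3.77 to 8.76%), where it was 5.63%. Outside the histone stretches, 20 of the 48 Smad2 peaks were shared, or 41.7% (28.8 to 55.7%). No peak inside these stretches was shared, so leaving them out could only raise the share. The share over all Smad2 peaks was not recomputed without histone genes. The shared sites were spread over 11 of the 16 bins, with 14 of them between 20 and 45 Mb, where 26 of the 68 Smad2 peaks lay. These sites were chosen by overlap, and highest points were sought only within the joined peaks. This bounds the distances between centres and between highest points, so their nearness restates that choice. The 20 shared intervals were 76 to 556 bp long (median 278.5 bp), the centres of the peaks lay a median 64.5 bp and at most 227 bp apart, the highest points a median 72.5 bp apart, and 9 Smad2 peaks were wholly inside the Eomesa peak.

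The tallest Smad2 peak of the chromosome was a shared one, Smad2_peak785 at adamts18, which encodes a secreted metalloprotease. It had 101 Smad2 tags (82.3 to 123), 45 Eomesa tags and 30 input tags (20.2 to 42.8). Input was also higher there than at any other Smad2 peak. The next was Smad2_peak772 at tmem9b and a 5S ribosomal RNA gene, with 56 Smad2 tags (42.3 to 72.7), 26 Eomesa tags and 13 input tags. Its lone neighbour 12.6 kb further on, Smad2_peak773, was almost as tall in Smad2, with 45 tags (32.8 to 60.2) and the same 13 of input, but had 5 tags of Eomesa (1.62 to 11.7). Of these 2 neighbours the intervals for Smad2 overlapped, and those for Eomesa (17.0 to 38.1 at the first) did not. The first had an Eomesa call and the second had none, so the Eomesa difference restates that choice.

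Shared peaks stood next to 3 genes of early development, sox32, irx3a and cth1. They come from a list of 17 mesendoderm genes, of which the others may lie on other chromosomes, and no share over all genes was counted, so that nothing is read from this number. At sox32, a Sox factor needed to make endoderm in zebrafish, Smad2_peak801 (chr7:65343338-65343964) had 15 Smad2, 14 Eomesa and 8 input tags. Only 132 bp further on, Eomesa_peak5615 had more of both factors, with 22 Smad2 and 23 Eomesa tags, and only 2 input tags, although no Smad2 peak was called there. At irx3a, an Iroquois homeobox gene, Smad2_peak776 had 25 Smad2, 20 Eomesa and 10 input tags. Further Smad2 peaks followed 46.2 and 65.3 kb after it: Smad2_peak777, shared, with 29, 11 and 8 tags, and Smad2_peak778, lone, with 12, 2 and 8. Between them Eomesa_peak5463 had 31 Eomesa and 22 Smad2 tags beside 16 of input, and again had no Smad2 call. Smad2_peak763 at cth1, which encodes a CCCH zinc-finger protein, had 38 Smad2, 18 Eomesa and 10 input tags. The lone Smad2_peak774 lay at aldh1a2, which encodes an enzyme that makes retinoic acid, and had 10, 2 and 7 tags. Eomesa_peak5440, 0.815 kb from the aldh1a2 peak, had 17 Eomesa and 12 Smad2 tags.

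Other shared peaks stood at genes of chromatin, signalling and metabolism, which were picked from the annotation of these peaks and not from a list of their own. Smad2_peak763 was also annotated to mta2, a subunit of the NuRD remodelling complex, and to TAF6L, a part of a histone acetyltransferase complex. Smad2_peak788 at smarcd3b, a subunit of the SWI/SNF complex, had 26 Smad2, 25 Eomesa and 11 input tags. At nkd1, whose product binds Dishevelled and dampens Wnt signalling, Smad2_peak781 had 20, 22 and 6 tags, with Smad2 above input. Smad2_peak769 at pygmb, a glycogen phosphorylase, had 25, 32 and 5. Smad2_peak787 at insig1, which holds back sterol-regulated transcription, had 16, 14 and 5. All of these were higher in Smad2 than in input, which restates their call against input.

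Among the shared sites, Eomesa was tallest at some with middling Smad2, though the tallest lone Eomesa peaks stood higher. Smad2_peak759, with no gene within 10 kb in the annotation, had 59 Eomesa and 22 Smad2 tags. Smad2_peak770 at acin1b and several small RNA genes had 54 and 17, and Smad2_peak783, with no annotated gene, had 54 and 21. Next in Eomesa came Smad2_peak785 at adamts18, the tallest Smad2 peak, with 45 Eomesa and 101 Smad2 tags. Smad2_peak764 at slc7a7, an amino acid transporter, had 36 and 17, Smad2_peak769 at pygmb had 32 and 25, and Smad2_peak767 at rbm4.3 and TIFA had 20 and 22. The remaining shared peaks (Smad2_peak761, Smad2_peak775, Smad2_peak789, Smad2_peak791 and Smad2_peak800) had 8 to 18 Smad2 and 6 to 20 Eomesa tags. The lowest shared site in both factors was Smad2_peak775 at THAP2, with 8 Smad2, 6 Eomesa and 2 input tags.

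Heights of the factors at the 20 shared intervals followed each other loosely, with Spearman's rho 0.441. It was 0.398 over 19 without the tallest Smad2 peak, and 0.231 without the intervals under 100 bp, at Smad2_peak761 and Smad2_peak775. Smad2 and input heights had rho 0.614 over the same intervals, and Eomesa and input 0.224. All points come from the same tracks, and this is a description of sites.

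Shared Smad2 peaks had higher Smad2 as well as higher Eomesa than lone ones, with much overlap in Smad2. The 20 shared peaks ran from 8 to 101 Smad2 tags with a median of 20.5, the 28 lone peaks outside histone stretches from 5 to 45 with a median of 14.5, and the 20 lone peaks inside them from 3 to 31 with a median of 11.5. For Eomesa the medians were 20, 3 and 3 tags, and for input 8, 6 and 7.5. On the scale of log2(height + 1), the median Smad2 height of shared peaks was 0.52 above that of all lone peaks. As multiples of the genome-wide mean, Eomesa signal averaged 39.2 at shared peaks, 4.57 at lone peaks elsewhere and 4.33 at lone peaks of the histone stretches. Input signal averaged 2.47, 2.28 and 2.69. Eomesa signal was therefore above the genome-wide mean at lone peaks too, but a few peaks raised the average. Median Eomesa signal was 2.47 at lone peaks elsewhere and 3.59 at those of the histone stretches, where median input signal was 2.07 and 2.145. The shared peaks had been defined by Eomesa calls, so the Eomesa difference restates that choice.

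**Figure D4:**
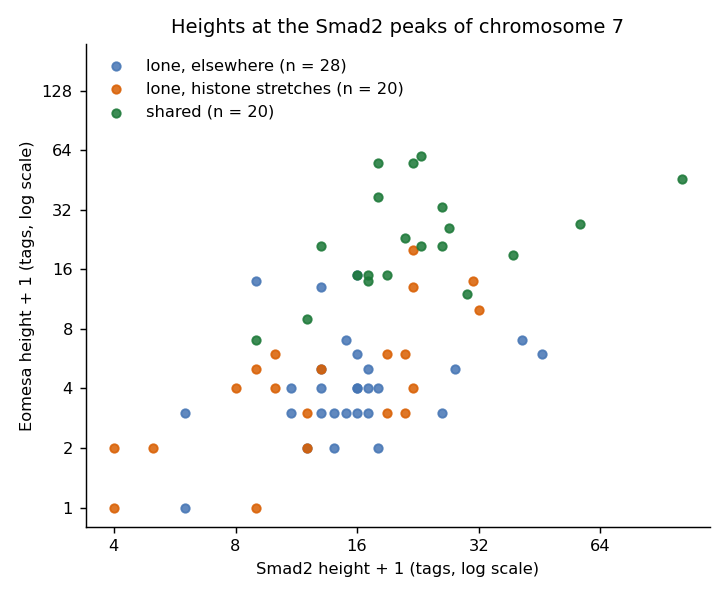
Smad2 height against Eomesa height at the 68 Smad2 peaks, both in tags plus 1 on a log scale, with shared peaks in green and lone peaks in orange and blue. Shared peaks have 6 to 59 Eomesa tags, and 9 of the 48 lone peaks reach into that range.

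Lone Smad2 peaks outside the histone stretches stood at genes of varied kinds. The first Smad2 peak of the chromosome, Smad2_peak741 at dctn1a, which encodes a subunit of the dynein partner dynactin, had 25 Smad2, 2 Eomesa and 8 input tags. Smad2_peak758 at vax2, an eye homeobox gene, had 12, 3 and 5. A second peak at adamts18, Smad2_peak786, followed 9.48 kb after the tall shared one and had 17, 1 and 6. This gene thus had a Smad2 peak with much Eomesa and another with almost none inside its interval. Within 200 bp of the second, Eomesa and input each reached 7 tags.

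Some lone Smad2 peaks had Eomesa tags in the range of the shared ones. Of the 48, 9 (18.8%) reached at least 6 Eomesa tags, the lowest value at a shared peak, against 18.6% of all lone Smad2 peaks. They were Smad2_peak743, Smad2_peak749, Smad2_peak804 and Smad2_peak808 in the histone stretches and Smad2_peak760, Smad2_peak768, Smad2_peak796, Smad2_peak797 and Smad2_peak802 elsewhere. Smad2_peak743 was the only 1 of these with more than 20 input tags, having 30 Smad2, 13 Eomesa and 24 input tags. At the other end Smad2_peak745, Smad2_peak754 and Smad2_peak798 had no Eomesa tag, a count with an exact Poisson interval of 0 to 3.69. An Eomesa peak lay within 10 kb of 9 of the 48 (18.8%, beside 22.5% over all lone Smad2 peaks).

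The surroundings of the peaks differed between these kinds. From 1 to 5 kb on either side, Smad2 signal was 2.47 times its genome-wide mean around histone peaks, 1.41 times around shared peaks and 1.32 times around other lone peaks, where input was at 1.11, 1.25 and 1.12 times. Smad2 signal inside the peaks exceeded that of these flanks 2.96, 8.37 and 6.38 times in the same order. For input the values were 2.42, 1.98 and 2.03 times, so that the rise of Smad2 over its flanks was nearest to that of input at histone peaks. The part of input in these peaks was not tested.

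**Figure D5:**
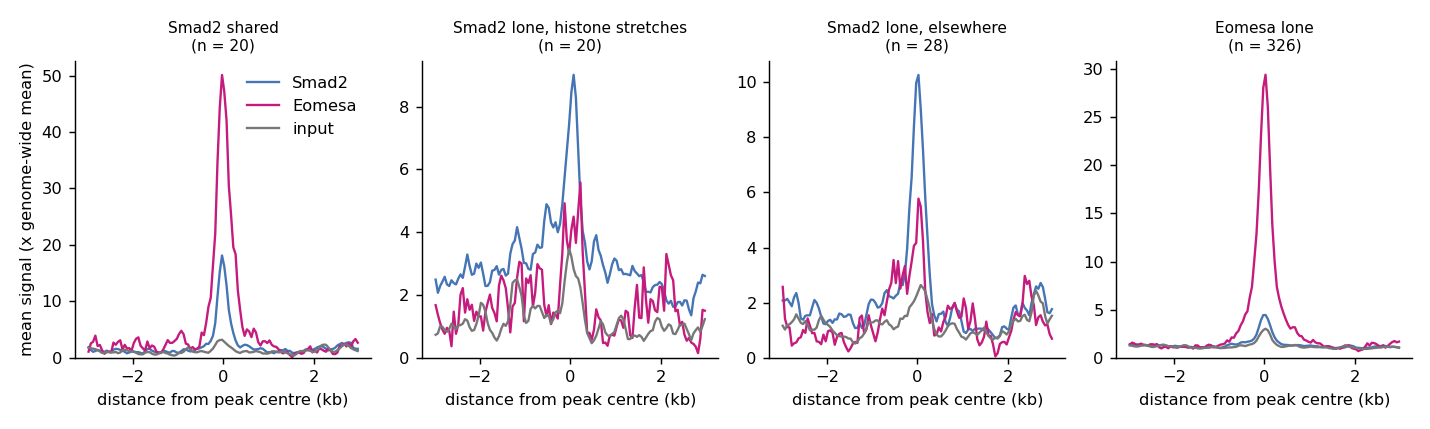
Mean signal of the 3 tracks from 3 kb before to 3 kb after the peak centre, as multiples of the genome-wide mean, over shared Smad2 peaks, lone Smad2 peaks in and outside the histone stretches, and lone Eomesa peaks, each panel with its own vertical scale. The centre exceeds the flank from 2 to 3 kb 10.6 times for Smad2 at shared peaks, 3.51 times at histone peaks, where input rises 3.50 times, and 5.47 times at other lone peaks. At histone peaks this flank is itself at 2.27 times the mean for Smad2 and 0.956 times for input.

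Of the 346 Eomesa peaks, 326 were without a Smad2 peak, and the tallest pair of these stood near the chromosome end. Eomesa_peak5654, chr7:76280868-76281994, was 1127 bp wide and reached 78 Eomesa tags, the highest value in the whole Eomesa track, with 21 Smad2 and 27 input tags. Eomesa heights stop at 78, and uncalled sites of the chromosome, such as chr7:76091956-76093055, reached it too. Eomesa_peak5652 had 64 Eomesa tags with 4 of Smad2 and 1 of input, and Eomesa_peak5373, far from the end at chr7:19727462-19727977, had 60, 18 and 12. Smad2 and input were thus high at the first of these and near 0 at the next. The annotation used for gene names covers Smad2 peaks, so no gene is given for these.

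Lone Eomesa peaks were lower in Eomesa than shared ones at the median. Their median Eomesa height was 14 tags (range 1 to 78), against 20 at the 20 shared Eomesa peaks. Their median Smad2 height was 7, and so was their median input height in the deeper input track. As multiples of the genome-wide mean of each track, Smad2 signal at lone Eomesa peaks was 3.85 and input signal 2.65. Shared Eomesa peaks had been defined by a Smad2 call, so lower Smad2 at lone ones restates that choice. Smad2 reached at least 15.5 tags, the median of the Smad2 peaks, at 28 of the 326 (8.59%), beside 8.14% of all lone Eomesa peaks. A Smad2 peak lay within 10 kb of 16 (4.91%), beside 5.17%. Those closest by were Eomesa_peak5397, 46 bp from Smad2_peak767 and with 26 Smad2 and 11 Eomesa tags, and Eomesa_peak5615 at sox32.

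Of the 346 Eomesa peaks, 35 were under 100 bp (10.1%) beside 11.9% over all, the narrowest being Eomesa_peak5357 at 1 bp. Groups of 3 or more Eomesa peaks with gaps of up to 10 kb held 27 peaks in 9 groups (7.80%), beside 12.3% over all.

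In most measures the chromosome lay near the rest of the series. Median Smad2 height was 15.5 tags against 17 in the rest, median Eomesa height 14 against 14, and median width 313 against 308 bp for Smad2 and 272.5 against 267 bp for Eomesa. Smad2 signal over input at Smad2 peaks was 3.70 against 3.95, and Eomesa signal over input at Eomesa peaks 9.07 against 9.39. Chromosomes 4 and 25 were set beside it for their shared and grouped Smad2 peaks. On chromosome 25, 14.8% were shared (8 of 54, 7.70 to 26.6%), and on chromosome 4, 31.8% (7 of 22, 16.4 to 52.7%), and both intervals overlapped that of chromosome 7. Tight groups held 66.7% of the Smad2 peaks of chromosome 25 (53.4 to 77.8%), or 36 peaks in 6 groups. On chromosome 4 they held 0 of 22, which allows up to 14.9%. Peaks of a group enter it together and are not independent. The intervals for groups are thus too narrow and are not set against that of chromosome 7. No test of a difference between chromosomes was made.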

How the data were processed

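ChIP-seq libraries of AB zebrafish blastulas (2 reactions each of Smad2, Eomesa and input, grouped by title) were mapped by the authors to Zv9 with Bowtie (reads with 1 or 2 matches kept), and peaks were called with MACS against paired input (versions not given in the sources used here). Peaks that overlapped between reactions form 1 deposited list per factor, which gives positions and widths. The tracks deposited by the authors hold the signal in steps of 5 bp as unscaled pileups of shifted tags. Whether they hold tags of both reactions is not stated.

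Coordinates are Zv9, counted from 1. Tag numbers were estimated from summed signal and tag length. Eomesa heights stop at 78, the span of 2 tag lengths. Peaks were called shared at 1 bp of overlap. Tight groups had at least 3 peaks with gaps of up to 10 kb. Shares carry Wilson and heights exact Poisson 95% intervals, which cover counting error only. A height is the highest value inside a called peak, and the Poisson interval leaves out that choice, so it is only a rough guide. The Wilson intervals take peaks as independent, which members of a tight group are not. With 1 list and 1 track per group no spread between reactions could be had, and no test was made.

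Gene names and Foxh1 matches were taken from the study's annotation of Smad2 peaks, without its values. Peaks named are the members of tight groups, shared peaks, those of the ChIP-qPCR, the 3 tallest lone peaks of each factor, the lowest Smad2 peaks and those under 50 bp. Others were named after their values were seen. Members and gene lists were chosen with earlier results of these data known. Scripts were tested on simulated data (Python 3.11.15, numpy 2.4.6, pandas 2.3.3, scipy 1.17.1).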

Additional observations from a re-analysis of the deposited data

How the results depend on the processing

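The 12 main results were recomputed under 58 alternatives, and 48 stayed within the Wilson interval of the main share or within 1.5 times the main value. For height differences the limit was a 1.5-fold change in height, wider than the differences themselves, so it could not show their loss. The Eomesa height difference between shared and lone peaks (0.485 in log2) was 0.242 after division by input height. Height differences and rho kept their sign, while shares, counts and signal ratios have no direction to turn. The share of Smad2 peaks that were shared (29.4%) was 47.1% among the taller peaks. Groups of at least 2 peaks numbered 9 and held 24 peaks. The fullest bin held 10 Smad2 peaks when peaks within 10 kb were counted as 1. Without the histone stretches, an alternative chosen after seeing the data, 41.7% were shared, 1 group with 3 peaks was left, and the fullest bin held 7. Eomesa signal at peaks of tight groups (3.40 times the genome-wide mean) was 1.42 after division by scaled input, and rho at shared intervals (0.441) was 0.231 over intervals of at least 100 bp. For rho, fewer intervals entered by construction. No paired analysis was possible because each factor has 1 list and 1 track without reaction numbers, and so no reaction could be left out either. Heights of a few tags have wide counting intervals, and differences among such peaks were not detectable at this depth.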

Other observations

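The tracks hold tall Eomesa signal outside the called peaks. Counting sites at least 200 bp from any peak of either list, with positions within 1 kb joined, the Eomesa track reached 40 or more tags at 66 uncalled sites of chromosome 7, where 15 called Eomesa peaks reached that height. Of the 66 sites, 32 (48.5%) lay in the last bins, from 70 Mb on, and 15 (22.7%) in the first 10 Mb. Input reached 40 tags at 13 of them, and the median input height over all 66 was 18 tags. At the 346 called Eomesa peaks of any height, the median input height was 7 tags. The genome-wide mean was 0.340 tags in the Eomesa track and 1.78 in the input track, so 40 tags mark unlike heights in these tracks. The site nearest to Smad2 binding was chr7:76840411-76841140 in the shorter histone stretch, with 76 Eomesa, 11 Smad2 and 11 input tags. Of the 66, 0 lay within 10 kb of a Smad2 peak. Only 4.91% of the lone Eomesa peaks of the chromosome lay that near, so nothing is read from this count. Another, chr7:77214606-77216080, had 65 Eomesa tags over 1475 bp with 9 Smad2 and 5 input tags. In the Smad2 track, 5 uncalled sites reached 40 tags, beside 4 Smad2 peaks, and input reached 40 at 3 of these, up to 139 tags at chr7:35921761-35922245, where Smad2 had 91. Whether these sites were called in 1 reaction only cannot be read from the deposited lists, and the limit of 40 tags was set after the tracks had been seen.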
